A study of Mus musculus with 6 samples.

Results

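The clustered protocadherins are cell-surface adhesion proteins encoded by 3 neighbouring gene clusters, and each variant begins with a variable exon that has a promoter of its own. The members were the genes on mouse chromosome 18 that GENCODE annotates as protein-coding and names Pcdha, Pcdhb or Pcdhg followed by a number or a letter variant, which gave 57 of 21951 protein-coding genes. They comprised 14 genes of the alpha cluster (12 alternate variants and the 2 C-type variants Pcdhac1 and Pcdhac2), 22 genes of the beta cluster and 21 genes of the gamma cluster (12 of type A, 6 of type B and 3 C-type variants). On the mm10 genome the alpha cluster, from its first window to the end of its constant exons, lies at chr18:36929684-37187661, the beta cluster at chr18:37264438-37524479 and the gamma cluster at chr18:37661293-37841873, all on the plus strand.

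Nuclear RNA was profiled by cap analysis of gene expression (CAGE), which reads a short tag at the start of each capped RNA and so counts starts base by base. There were 3 libraries of mESC R08, a mouse embryonic stem cell line grown without feeders in serum medium with leukemia inhibitory factor, and 3 libraries of Oli-neu, a mouse oligodendrocyte progenitor line (mOPC) grown on poly-L-lysine in N2 medium with T3, L-thyroxine, bFGF and PDGF-BB. Neither line carried a treatment, each group is 1 cell line, and the labels do not say whether the libraries of a line came from separate cultures, so that p-values measure the spread between these libraries, which may be technical. The libraries of a line share a library label in the deposited files that differs between the lines, so that this batch and the cell line cannot be told apart. For each member, tags were counted on its strand within 500 bp of the annotated 5′ ends of its variable exon, and not in the constant exons. Levels are given as CPM, the tags of a promoter scaled to a library total of 1000000 tags, and where 3 values are given for a line they are those of its libraries.

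In the alpha and gamma clusters, the transcript that starts at a variable exon is spliced to constant exons that all variants of the cluster share, whereas each beta gene is a single variable exon. In neurons, single cells choose a few alternate promoters, while the C-type promoters follow other rules, and the resulting surface proteins give cells a recognition code. Choice of a promoter has been tied to DNA methylation, to an antisense transcript within the variable exon, and to CTCF and cohesin, which bring promoters to distant enhancers. A library pools many cells, so the values describe a culture and not the choice of single cells, and fewer cells using a promoter cannot be told apart from less RNA per cell.

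The mESC libraries held 16657021 to 37888141 tags and the mOPC libraries 21925299 to 40928704 tags. The stem cell markers were lower in mOPC in 8 of 8 genes tested, with a summed level of 3840 to 4181 CPM in mESC and 41.2 to 46.0 in mOPC. Of these, Pou5f1, Nanog, Zfp42, Dppa5a and Tdgf1 had 0 tags in mOPC. The oligodendrocyte lineage markers were higher in 7 of 7 genes tested, with 14.3 to 15.7 CPM in mESC and 1563 to 1670 in mOPC, although Nkx2-2 had 0 tags in mOPC. Of the neuron markers 2 of 7 were higher and 5 lower (303 to 331 CPM in mESC and 234 to 281 in mOPC), with Rbfox3, Snap25, Stmn2 and Nefl at 0 in mOPC, where Syt1 (3.43 CPM in mESC and 87.9 in mOPC) and Map2 (7.71 and 168) made up most of the sum. The astrocyte markers gave 2 higher and 2 lower of 4 tested (115 to 129.6 and 94.3 to 108 CPM, Aqp4 at 0 in mOPC), and the fibroblast markers 1 and 1 of 2 tested (2.72 to 3.00 and 5.52 to 6.57, with Lum at 0 in both lines). Marker genes at or near 0 tags in a line could pass the filter on low counts only through the other line, which fixed the direction of their calls. In the same edgeR fit, described below, 42.8% of all genes tested were higher in mOPC and 48.4% lower.

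A promoter was called used in a line at a mean of at least 1 CPM over its libraries. By this measure 15 members were used in mESC and 27 in mOPC, 3 of them in both lines (Pcdhga1, Pcdhgb4 and Pcdhgc3) and 18 in neither. All 15 in mESC were gamma variants, 10 of type A, 4 of type B and Pcdhgc3. The 27 in mOPC were 7 alpha, 16 beta and 4 gamma variants. Among all protein-coding genes, 57.2% were used in mESC and 52.3% in mOPC by the same measure. In mESC 9 of the 57 members had 0 tags in all libraries (8 beta variants and Pcdha8), and in mOPC 1 member, Pcdha1.

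**Figure D1:**
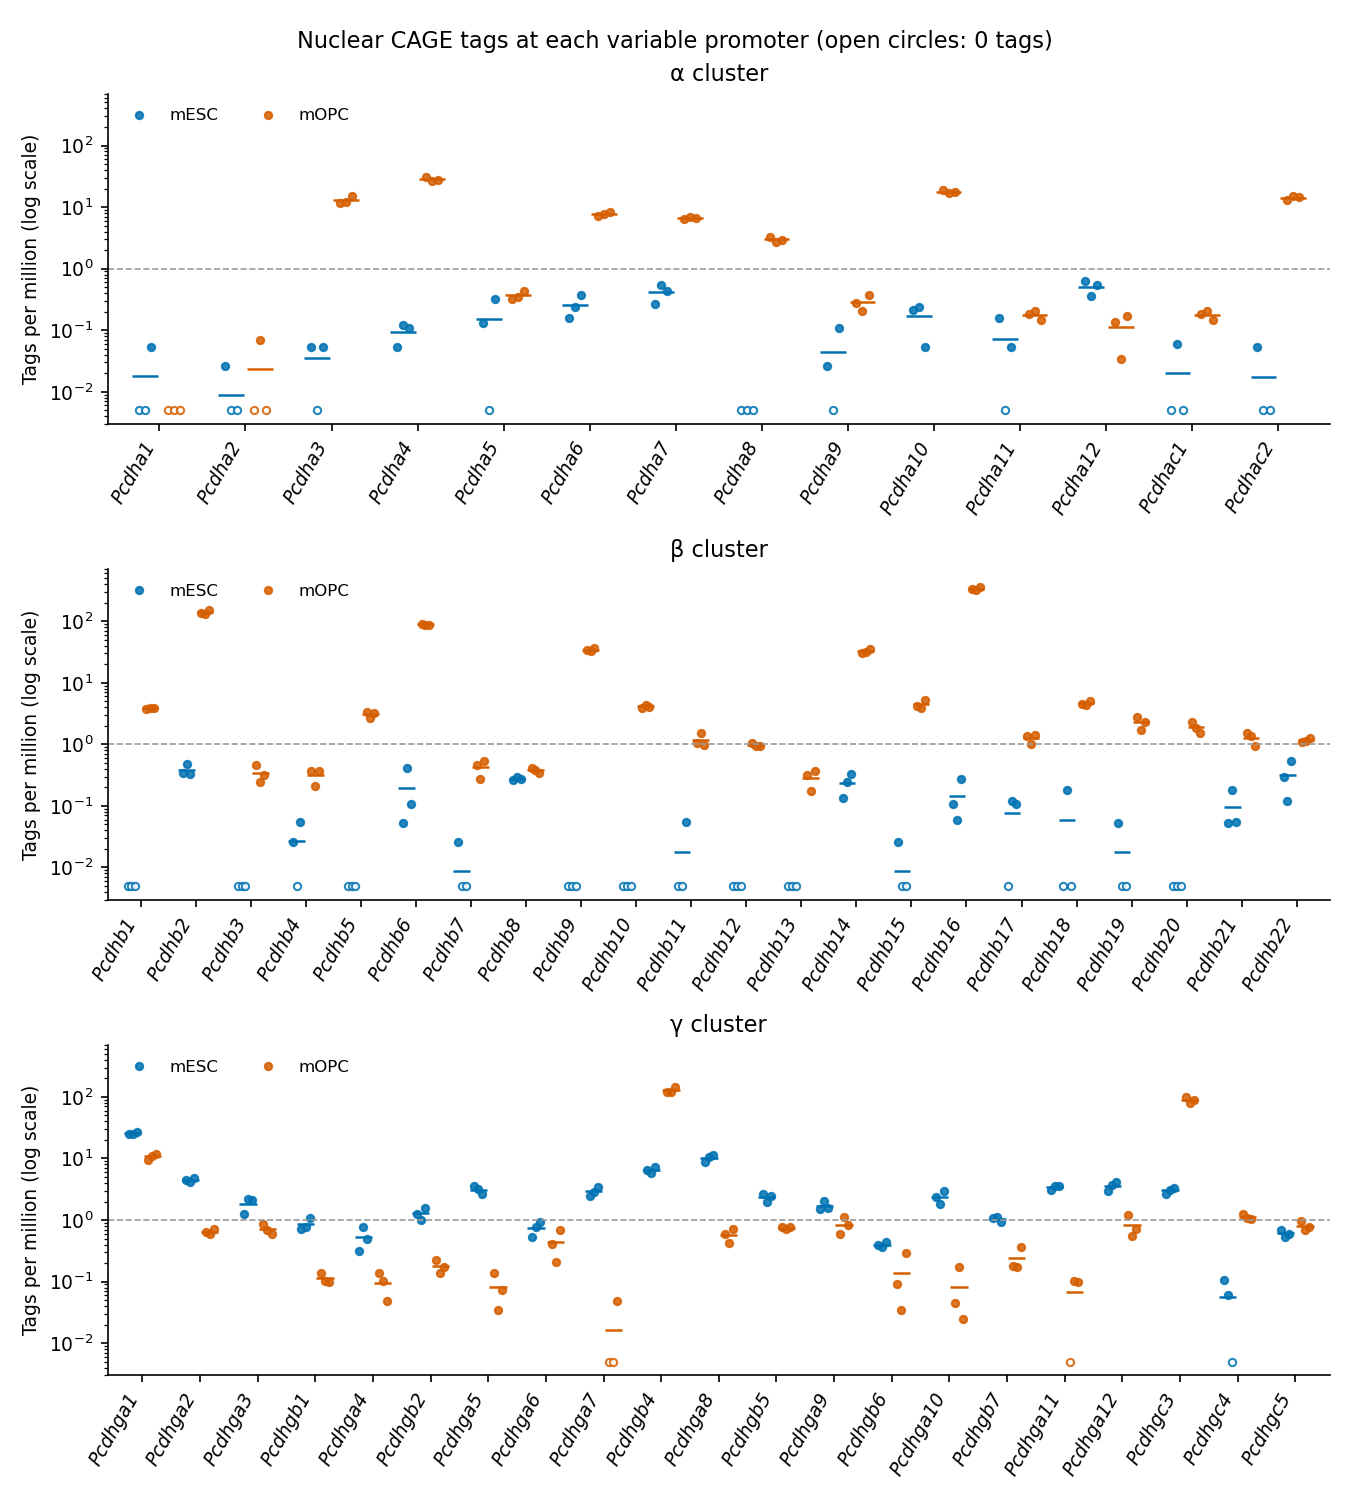
CPM (log scale) at each variable promoter, with members in genomic order, a point for each library, a line at the mean of 3 libraries and open circles for 0 tags, and a dashed line at 1 CPM. The alpha and beta points of mOPC rise to 362 CPM at Pcdhb16, the mESC points of these clusters stay under 1, and in the gamma cluster the mESC mean is above 1 at 15 members.

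Summed over the members of a cluster, alpha promoters gave 1.77, 1.56 and 2.12 CPM in mESC and 92.3, 89.1 and 94.3 in mOPC. Beta promoters gave 1.37, 2.10 and 2.12 in mESC and 656, 634 and 705 in mOPC. Gamma promoters gave 72.1, 75.2 and 82.9 in mESC and 238, 217 and 253 in mOPC. The lines did not overlap in any cluster, and the ratio of the means, mOPC over mESC, was 50.6 for alpha, 357 for beta and 3.08 for gamma. The ratios of the geometric means, 51.0 for alpha and 364 for beta, became 92.2 and 664 when only positions with at least 2 tags were counted. A two-sided exact permutation test over 3 against 3 libraries gave p = 0.1 for each cluster, the smallest p this design allows. Together the members held 0.00944% to 0.0109% of the tags at protein-coding promoters in mESC and 0.142% to 0.160% in mOPC.

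Single members were compared with the quasi-likelihood test of edgeR, with Benjamini-Hochberg adjustment over all 13941 protein-coding genes that passed a filter on low counts. Of the 57 members 43 passed the filter (7 alpha, 17 beta and 19 gamma), and 14 with too few tags were not tested. In mOPC 27 were higher and 14 lower at an adjusted p under 0.05, against 42.8% of all genes tested that were higher and 48.4% that were lower. With 91.3% of all genes called, a call alone did not set the members apart from other genes, and the sizes of the changes are given beside it. Nor did a lack of overlap between the lines. It was seen at 42.7% of all genes tested with higher and at 48.7% with lower values in mOPC. The 7 alpha and 17 beta members tested were all higher in mOPC, but none of them had a mean above 0.5 CPM in mESC, so that they passed the filter through mOPC alone, which fixed the direction of their calls. The gamma members tested gave 3 higher, 14 lower and 2 without a call. Of those called lower, Pcdhga5, Pcdhga7, Pcdhga10, Pcdhga11, Pcdhgb1, Pcdhgb2 and Pcdhgb7 had 2 to 24 tags each in mOPC in all. They passed the filter through mESC alone, and Pcdhgc4, with 5 tags in mESC, through mOPC alone. The direction of these calls was thus fixed as well. Without the filter all 57 members were tested, among 17283 genes of which 35.9% were higher in mOPC and 46.3% lower. Of the 14 alpha members 10 were then higher, 1 was lower and 3 were without a call, of the 22 beta members 21 were higher and 1 was without a call, and of the 21 gamma members 3 were higher, 16 lower and 2 without a call.

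**Figure D2:**
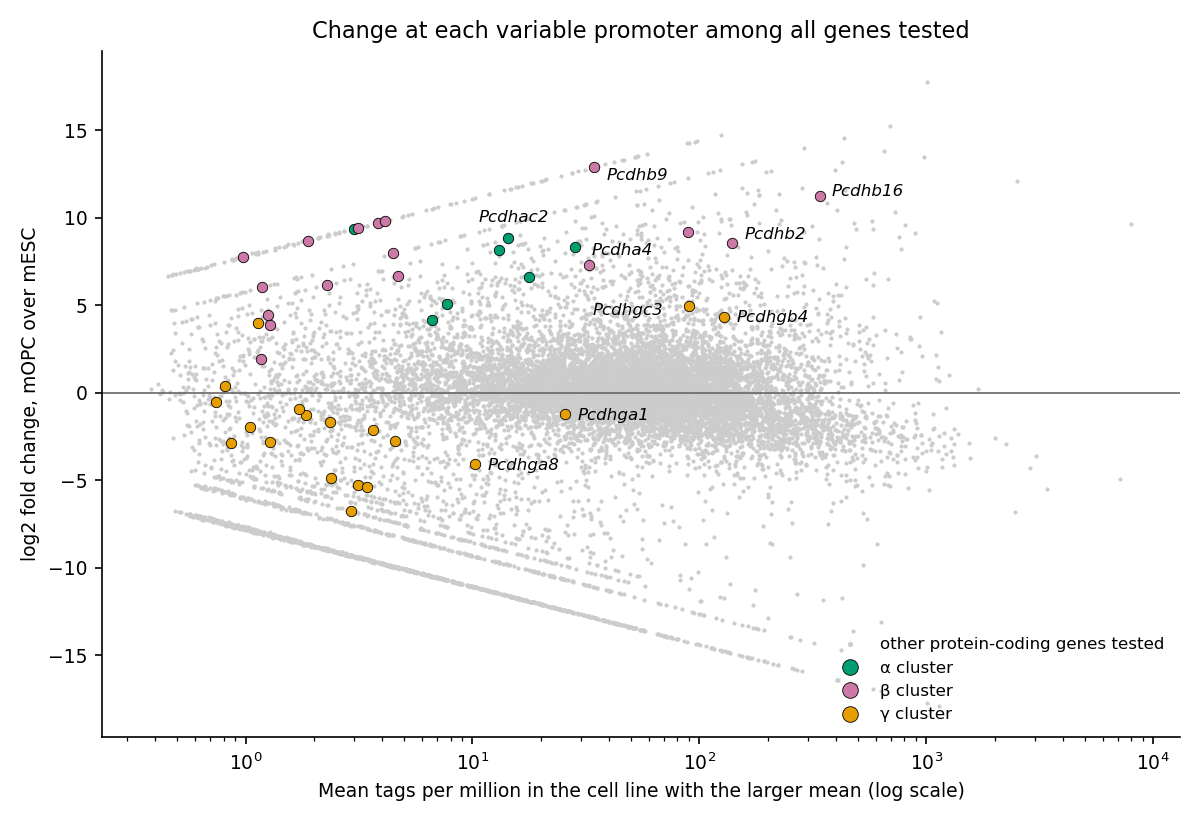
The log2 fold change of mOPC over mESC (edgeR) against the mean CPM in the line with the larger mean (log scale), with all genes tested in grey and members coloured by cluster. The alpha and beta members that passed the filter lie above 0. Among gamma members Pcdhgb4, Pcdhgc3 and Pcdhgc4 lie above it by 4.30, 4.92 and 3.96, and Pcdhgc5, without a call, by 0.36.

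The alternate alpha variants were used in mOPC at 6 of 12 promoters: Pcdha3, Pcdha4, Pcdha6, Pcdha7, Pcdha8 and Pcdha10. Pcdha4, the strongest, had 2, 2 and 2 tags in mESC and 670, 770 and 1129 in mOPC. In CPM this is 0.0528, 0.120 and 0.109 against 30.6, 26.7 and 27.6, with no overlap and a log2 fold change of 8.35 ± 0.23 (SE, adjusted p = 1.45e-42, edgeR). Another gene annotated as protein-coding, Gm42416, starts inside the same variable exon, at chr18:36952741. Its window held 672, 769 and 1127 tags in mOPC, so that nearly the same starts were counted for both genes. Pcdha10, the gene at chr18:37005203 that GENCODE also names Pcdha11 and RefSeq names Pcdha10, had 0.211, 0.240 and 0.0543 CPM in mESC and 18.7, 16.6 and 17.9 in mOPC (log2 fold change 6.61 ± 0.23, adjusted p = 2.65e-37, edgeR). All its mOPC libraries stood far above all mESC libraries.

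Pcdha3 had 0.0528, 0 and 0.0543 CPM in mESC and 11.9, 12.2 and 15.0 in mOPC. With only 3 tags in mESC, its ratio was 325, with a 95% exact binomial interval of 111 to 1579. Pcdha6 had 0.158, 0.240 and 0.380 CPM in mESC against 7.16, 7.77 and 8.33 in mOPC (log2 fold change 5.04 ± 0.25, adjusted p = 8.70e-29, edgeR). Pcdha8 had 0 tags in every mESC library and 72, 79 and 121 in mOPC, which makes it at least 72.2-fold higher in mOPC, counting the mESC libraries together as 3 tags. Pcdha7, named after its values were seen, rose from 0.413 ± 0.139 to 6.66 ± 0.158 CPM (SD, n = 3 libraries).

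The other 6 alternate alpha promoters stayed under 1 CPM in both lines and were not tested. Among them Pcdha12, singled out after its values were seen, had 0.633, 0.360 and 0.543 CPM in mESC and 0.137, 0.0347 and 0.171 in mOPC, so that it was the only alternate alpha variant with a mean above 0.5 in mESC. Without the filter on low counts, and in 4 of the 6 fits that left out 1 library, it was tested and was the 1 alpha member called lower in mOPC. Pcdha2, Pcdha5, Pcdha9 and Pcdha11 had means of at most 0.153 CPM in mESC and 0.369 in mOPC, both at Pcdha5. Pcdha1, the first variable exon of the cluster, had 1 tag in mESC and 0 in mOPC.

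The C-type alpha variants differed from each other. Pcdhac2 had 2, 0 and 0 tags in mESC and 288, 437 and 598 in mOPC, or 13.1, 15.2 and 14.6 CPM. Its ratio of mOPC over mESC was 526 (95% exact binomial interval 145 to 4352), and the edgeR test gave an adjusted p of 1.45e-36. Pcdhac1 had 0, 1 and 0 tags in mESC and 4, 6 and 6 in mOPC, or 0.179 ± 0.0309 CPM in mOPC (SD, n = 3), and was not tested. Pcdhac2 thus ranked behind Pcdha4 and Pcdha10 and beside Pcdha3, whose mOPC libraries it overlapped, at 15.6% of the alpha tags of mOPC.

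Tags were kept by the authors only where they aligned to 1 place, and alpha variants resemble one another. Of the 25-base words in the first 500 bases of the variable exon transcripts, a median of 53.5% per alpha gene occurred in no other annotated gene, against 100% for beta and 92.4% for gamma genes. The lowest share was 41.4%, at Pcdha11. The genome itself was not searched, and how many tags this removed at each promoter was not tested.

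In the beta cluster 5 promoters held most of the tags of mOPC. Pcdhb16 had 4, 1 and 5 tags in mESC and 7307, 9214 and 14799 in mOPC. This is 0.106, 0.0600 and 0.271 CPM against 333, 320 and 362, a log2 fold change of 11.23 ± 0.18 (SE, adjusted p = 8.53e-57, edgeR). Pcdhb16 was the most used of all 57 members, with 50.8% ± 0.452 of the beta tags and 34.0% ± 0.290 of the tags of all members in mOPC (SD, n = 3).

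Pcdhb2 followed with 0.343, 0.480 and 0.326 CPM in mESC and 134, 132 and 151 in mOPC (log2 fold change 8.54 ± 0.16, adjusted p = 6.78e-53, edgeR). Pcdhb6 had 0.0528, 0.420 and 0.109 in mESC and 90.9, 87.6 and 87.7 in mOPC (9.16 ± 0.19, adjusted p = 6.11e-47, edgeR). The 3 leading promoters did not overlap among the mOPC libraries, so that their order was the same in each. Pcdhb9 had 0 tags in every mESC library and 737, 950 and 1484 in mOPC, or 33.6, 32.9 and 36.3 CPM, and was at least 841-fold higher in mOPC. Its mOPC libraries overlapped those of Pcdhb14 (30.6, 31.9 and 35.8 CPM, against 0.132, 0.240 and 0.326 in mESC), a neighbour in rank that was named after its values were seen.

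The other 11 used beta promoters had means between 1.17 and 4.67 CPM in mOPC. Pcdhb1, the first gene of the cluster, had 0 tags in mESC and 3.74, 3.88 and 3.86 CPM in mOPC. Of the 6 beta members that were not used, Pcdhb12 came closest to the threshold with 1.05, 0.936 and 0.953 CPM in mOPC, and was at least 23.6-fold higher than in mESC, where it had 0 tags. The other 5 (Pcdhb3, Pcdhb4, Pcdhb7, Pcdhb8 and Pcdhb13) had means between 0.286 and 0.424 CPM in mOPC and were not tested. Just inside the threshold lay Pcdhb22 at 1.17 and Pcdhb11 at 1.18 CPM. In mESC Pcdhb2 had the largest mean of the cluster, 0.383 ± 0.0847 CPM (SD, n = 3), under the threshold.

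**Figure D3:**
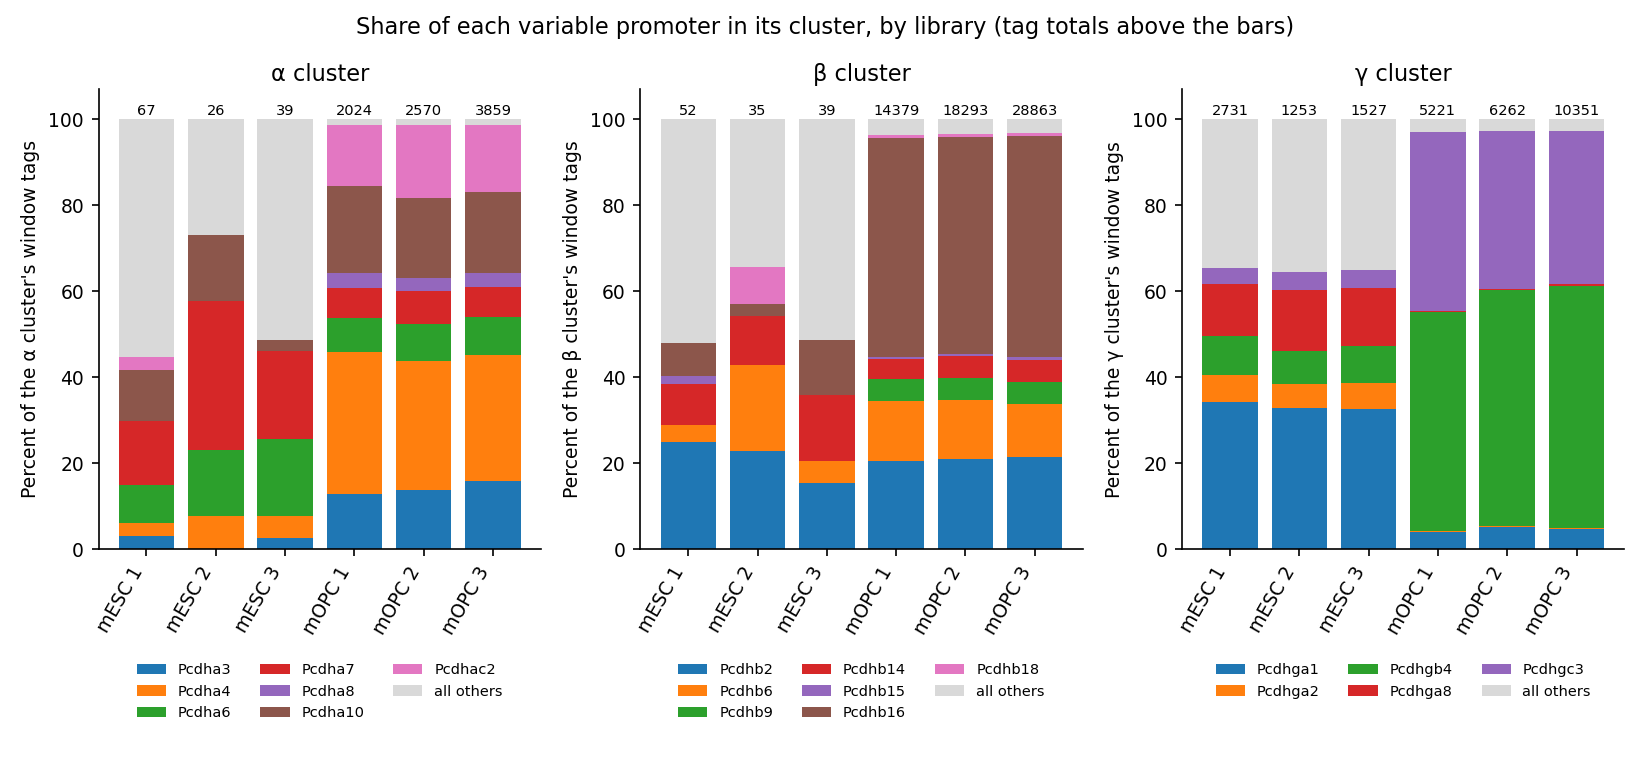
Percent of each cluster's window tags in its leading members, for each library, with the number of tags above each bar and all other members in grey. The mOPC bars of a cluster look alike, with Pcdhb16 at 50.8% of beta tags and Pcdhgb4 and Pcdhgc3 at 54.1% and 38.0% of gamma tags on average, and the alpha and beta bars of mESC rest on 26 to 67 tags each.

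In the gamma cluster both lines used promoters, but not to the same extent. Pcdhga1, the first variable exon, led in mESC with 24.6, 24.7 and 27.1 CPM, and it had 9.44, 11.1 and 11.9 in mOPC. It was lower in mOPC by a log2 fold change of -1.21 ± 0.11 (adjusted p = 2.80e-16, edgeR) and was still the third of the gamma members there. Pcdhga8, the second in mESC, had 8.82, 10.6 and 11.2 CPM in mESC and 0.593, 0.416 and 0.709 in mOPC (log2 fold change -4.08 ± 0.20, adjusted p = 1.39e-29, edgeR). The libraries of the lines did not overlap at either promoter.

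Pcdhga2 had 4.54, 4.20 and 4.88 CPM in mESC and 0.639, 0.589 and 0.709 in mOPC (log2 fold change -2.78 ± 0.21, adjusted p = 1.73e-19, edgeR). The largest declines were at Pcdhga7, Pcdhga11 and Pcdhga5. Pcdhga7 had 2.45, 2.82 and 3.47 CPM in mESC and 0, 0 and 2 tags in mOPC, a ratio of 0.00780 with a 95% exact binomial interval of 0.000939 to 0.0285. Pcdhga11 had 3.09, 3.54 and 3.64 CPM in mESC against 0, 0.104 and 0.0977 in mOPC (log2 fold change -5.37 ± 0.35, adjusted p = 8.75e-23, edgeR). Pcdhga5 fell from 3.13 ± 0.441 to 0.0816 ± 0.0516 CPM (SD, n = 3). The other type A variants used in mESC were Pcdhga10 at 2.38 ± 0.565 CPM, Pcdhga3 at 1.84 ± 0.519 and Pcdhga9 at 1.72 ± 0.283 (SD, n = 3), and all were lower in mOPC, at 0.0811, 0.715 and 0.844. The call at Pcdhga9, with a log2 fold change of -0.95, was lost in a window of 1000 bp (-0.084, adjusted p = 0.718, edgeR) and with the 5′ ends of all its transcripts (-0.46, adjusted p = 0.0582, edgeR). Pcdhga6, at 0.744 CPM in mESC and 0.434 in mOPC, passed no threshold (log2 fold change -0.56, adjusted p = 0.126, edgeR), but it was called lower without mESC replicate 1 (-0.91, adjusted p = 0.0349) and without mOPC replicate 3 (-1.27, adjusted p = 0.00953).

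Pcdhga12 changed direction with the window. It had 114, 62 and 77 tags in mESC and 26, 16 and 29 in mOPC within 500 bp of its 5′ end, a log2 fold change of -2.17 ± 0.23 (adjusted p = 9.15e-14, edgeR). Within 200 bp it had 1 tag in mESC in all and was called higher in mOPC, with a log2 fold change of 5.30. The position with the most tags lay 396 bp downstream of the annotated 5′ end in every mESC library and 169 bp downstream of it in the pooled mOPC libraries, 227 bp apart.

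Of the type B variants, Pcdhgb4 went the other way from its neighbours. It had 6.52, 5.82 and 7.22 CPM in mESC and 121, 119 and 142 in mOPC, a log2 fold change of 4.30 ± 0.11 (adjusted p = 2.24e-44, edgeR), and it took 8.5% of gamma tags in mESC and 54.1% in mOPC. Pcdhgb5 had 2.61, 1.98 and 2.50 CPM in mESC and 0.775, 0.728 and 0.757 in mOPC (-1.66 ± 0.23, adjusted p = 1.08e-09, edgeR), a call that was lost in a window of 1000 bp (log2 fold change -0.13, adjusted p = 0.501, edgeR). Pcdhgb2 (1.28 ± 0.279 CPM) and Pcdhgb7 (1.05 ± 0.113) were used in mESC and fell to 0.179 ± 0.0452 and 0.241 ± 0.109 in mOPC (SD, n = 3). Pcdhgb1, at 0.859 ± 0.199 in mESC and 0.113 ± 0.0210 in mOPC, had a log2 fold change of -2.86. Pcdhga4 and Pcdhgb6 had 0.529 and 0.397 CPM in mESC and 0.0966 and 0.140 in mOPC, and were not tested.

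Among the C-type gamma variants, Pcdhgc3 had 2.64, 3.12 and 3.36 CPM in mESC and 99.1, 79.7 and 90.4 in mOPC. Its log2 fold change was 4.92 ± 0.12 (adjusted p = 1.02e-45, edgeR) and its share of gamma tags 3.96% in mESC and 38.0% in mOPC. It was the second of the gamma members in each mOPC library, behind Pcdhgb4. Pcdhgc4 had 4, 1 and 0 tags in mESC and 28, 31 and 43 in mOPC, or 1.28, 1.07 and 1.05 CPM there (3.96 ± 0.47, adjusted p = 8.82e-12, edgeR). Pcdhgc5 had 0.686, 0.540 and 0.597 CPM in mESC and 0.958, 0.694 and 0.782 in mOPC, with no call (0.36 ± 0.30, adjusted p = 0.253, edgeR), and windows of 200 bp and 1000 bp gave calls in opposite directions (-1.21 and 1.12).

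The spread of tags over variants did not overlap between the lines in the beta and gamma clusters. The effective number of variants, the exponential of the Shannon entropy of the tag shares, equals the number of promoters when all are used alike and falls towards 1 as few take over. For gamma it was 10.9 ± 0.150 in mESC and 2.81 ± 0.0190 in mOPC (SD, n = 3), and the first 3 promoters held 54.7% to 55.4% of the tags in mESC and 96.5% to 96.8% in mOPC, without overlap. For beta it was 7.53, 7.65 and 7.68 in mESC and 4.55, 4.54 and 4.45 in mOPC, without overlap, but the mESC values rest on 35 to 52 tags a library. For alpha it was 7.18, 4.97 and 7.03 in mESC, from 26 to 67 tags, and 6.08, 6.28 and 6.32 in mOPC, which overlap. The two-sided exact permutation test gave p = 0.1 for gamma and beta, the smallest p possible, and p = 1.0 for alpha.

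Most used promoters had focused starts. In mESC all 15 used members had at least 50% of their tags within 50 bp of the position with the most tags, and in mOPC 22 of 27 did (6 alpha, 13 beta and 3 gamma members), a limit chosen after the values were seen. At these 15 members the leading position lay 104 to 208 bp upstream of the start codon (median 173). At the 22 members of mOPC it lay 12 to 181 bp upstream (median 155), and between 100 and 200 bp at 20 of them. At Pcdhb16, 98.8% of the tags lay within 50 bp of the leading position, and at Pcdha10 99.0%.

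Pcdhga1 and Pcdhgc3 had the same leading position in both lines, 19 and 14 bp upstream of the annotated 5′ end, and it was the same in all 6 libraries. At Pcdhgb4 the leading positions of the lines lay 7 bp apart. Of 11 members with at least 30 tags in each line, 5 shared the leading position exactly and 6 within 50 bp.

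The 5 used members of mOPC without a focused start were Pcdhac2, Pcdhb17, Pcdhb20, Pcdhb22 and Pcdhgc4. Pcdhac2 was the only strong one, with 30.4% of its tags within 50 bp of a leading position 429 bp downstream of the annotated 5′ end and 37 bp upstream of the start codon. At Pcdhb22 and Pcdhgc4 the share was 12.8% and 14.7%, over widths of 1186 and 1015 bp between the 10th and 90th percentile of tags. Part of these tags lay in the exon of another gene: the window of Pcdhb22 reaches into the exon of Pcdhb21, where 85.3% of its mOPC tags lay, and the windows of Pcdhb18 and Pcdhb20 reach into Pcdhb17 and Pcdhb19, with 23.5% and 20.5%. In a window of 200 bp Pcdhb22 had a log2 fold change of 0.79 and lost its call (adjusted p = 0.0572, edgeR).

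**Figure D4:**
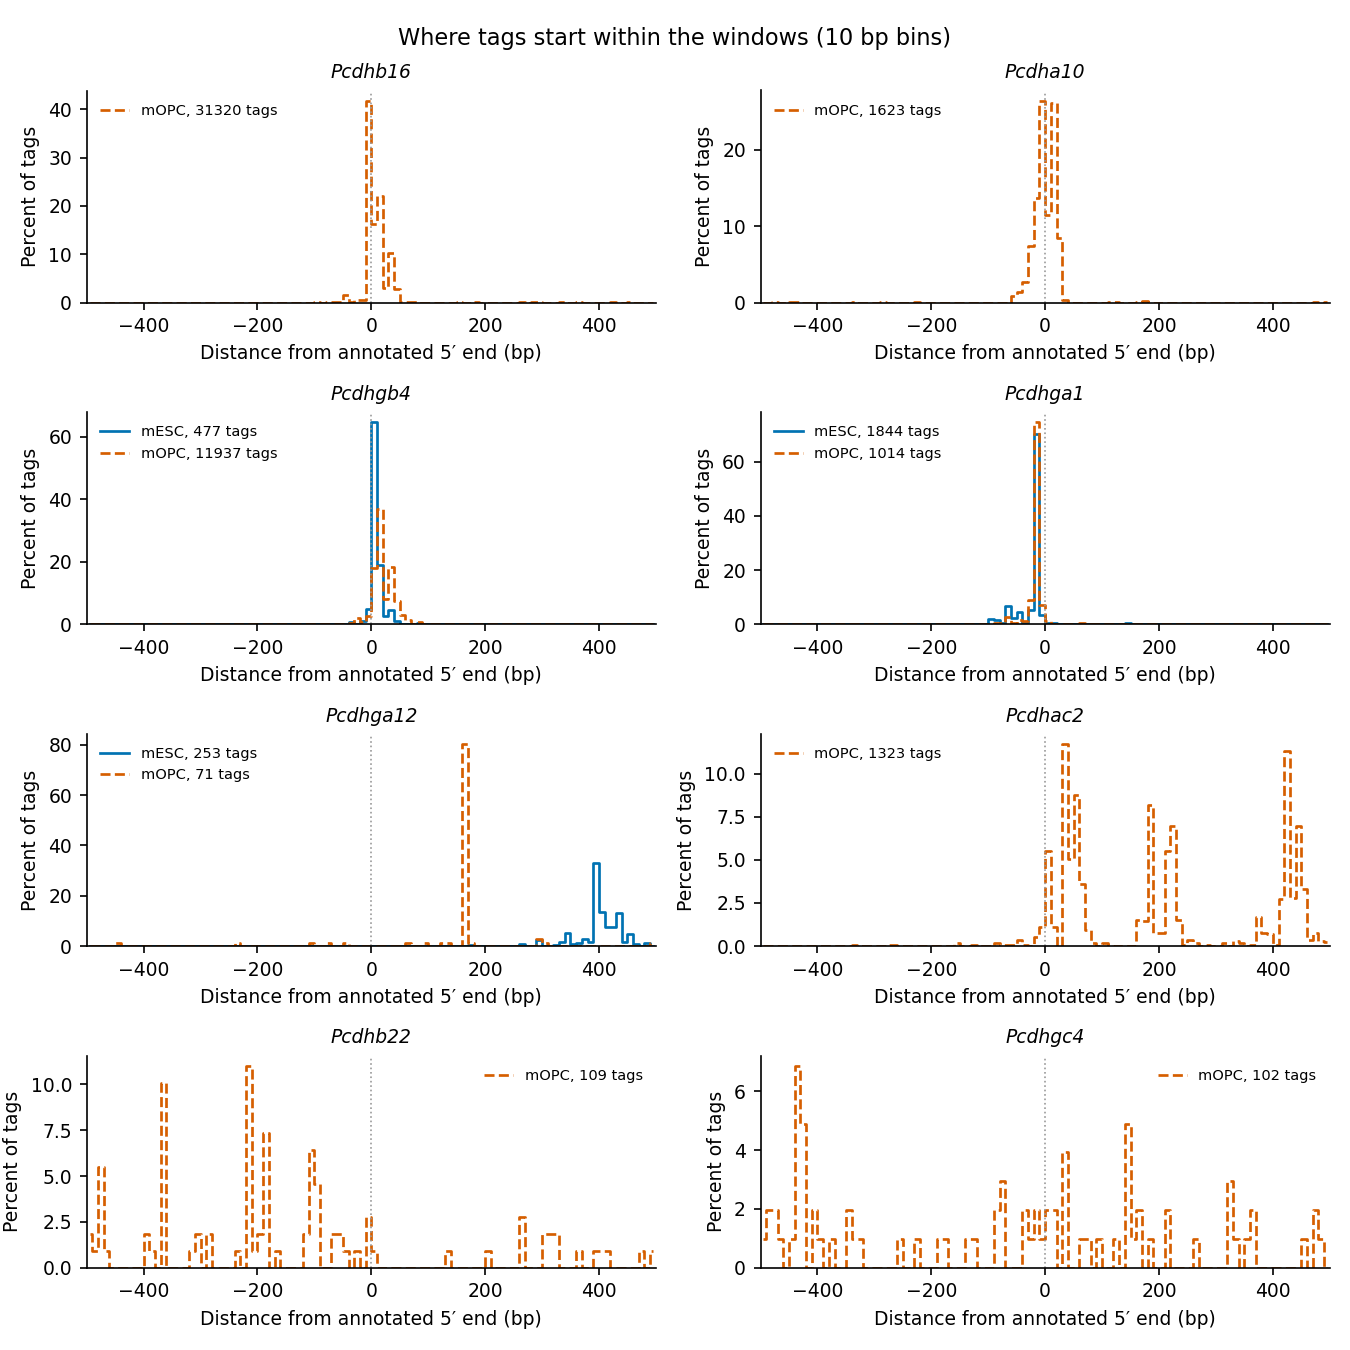
Percent of a member's tags in 10 bp bins by distance from the annotated 5′ end, summed over the 3 libraries of a line, for lines with at least 30 tags. Pcdhb16, Pcdha10, Pcdhgb4 and Pcdhga1 have 1 narrow group of starts near 0, Pcdhga12 has separate starts in the 2 lines at 396 and 169 bp, Pcdhac2 has several groups up to 429 bp, and Pcdhb22 and Pcdhgc4 have scattered starts.

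On the other strand, which the selection of members did not use, tags within the windows were few. The antisense share of window tags was 2.30%, 1.57% and 1.35% in mESC and 0.369%, 0.444% and 0.301% in mOPC. These shares did not overlap (two-sided exact permutation p = 0.1, the smallest possible). The lower share in mOPC did not come with fewer antisense tags, which numbered 110 in mESC and 331 in mOPC, pooled over libraries. The summed sense level of the members rose from 80.4 to 993 CPM. At all other protein-coding genes the share was 15.4% and 17.6% on average, but their windows also take in starts of genes on the other strand. The clusters differed: the gamma windows had 2.22%, 1.57% and 1.42% in mESC and 0.363%, 0.650% and 0.395% in mOPC, without overlap. In the alpha windows the lines overlapped, with 6.94%, 3.70% and 0% in mESC, from 6 tags, and 1.99%, 2.28% and 1.78% in mOPC. The beta windows had 0 antisense tags in mESC, and 0.139%, 0.109% and 0.0658% in mOPC.

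Just beyond the windows, alpha variable exons of mOPC held antisense starts. Over window and variable exon together, the 6 used alternate alpha members had 43 to 186 antisense tags each, and the other 8 alpha members 0 to 29. Pcdha4 had 48, 56 and 82 antisense tags in mOPC, Pcdha10 had 48, 43 and 83, and Pcdha3 had 24, 46 and 49. The leading antisense position lay 512 to 571 bp downstream of the annotated 5′ end in all 6, inside the coding part of the variable exon. Within 50 bp of it lay 69.6% (Pcdha7) to 93.7% (Pcdha10) of the antisense tags. Relative to the sense tags of the window there were 5.96 antisense tags per 100 at Pcdha6 and 30.9 per 100 at Pcdha8. In mESC, where these promoters were not used, the same 6 exons held 11 antisense tags in all. The beta members had 4 to 64 antisense tags each in mOPC, and none with at least 30 had more than 28.1% of them within 50 bp of the leading position, although Pcdhb16 alone had 31320 sense tags. Of the gamma members only Pcdhgc3 had at least 30 in mOPC, 272 in all and more than any alpha member, with 12.5% of them within 50 bp of the leading position. In mESC, where Pcdhgc3 had 47, the share was 78.7%, around a position 139 bp upstream of its 5′ end.

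Another pair of starts lay at the end of the Pcdhga12 variable exon, in mESC. In the last 400 bases of that exon (chr18:37768141-37768540) sense tags numbered 1491, 607 and 725 in mESC and 1, 4 and 6 in mOPC, or 38.4 ± 1.68 and 0.110 ± 0.0562 CPM (SD, n = 3). Antisense tags numbered 268, 122 and 139 in mESC and 1, 0 and 1 in mOPC, or 7.31 ± 0.235 and 0.0233 ± 0.0228 CPM. The sense level exceeded that of Pcdhga1, the strongest variable promoter of mESC. The leading sense position lay 185 bases before the exon end and the leading antisense position 96 bp upstream of it, and 97.6% and 97.7% of the tags lay within 50 bp of these. The lines did not overlap on either strand (two-sided exact permutation p = 0.1, the smallest possible). The stretch was chosen after its tags were seen, so that this comparison describes it and does not test it. These starts lie outside the window of Pcdhga12 and were not counted for it. With them, variable exons beyond the windows held 31.2% ± 0.722 of the sense tags of the gamma cluster in mESC and 9.56% ± 0.133 in mOPC (SD, n = 3).

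**Figure D5:**
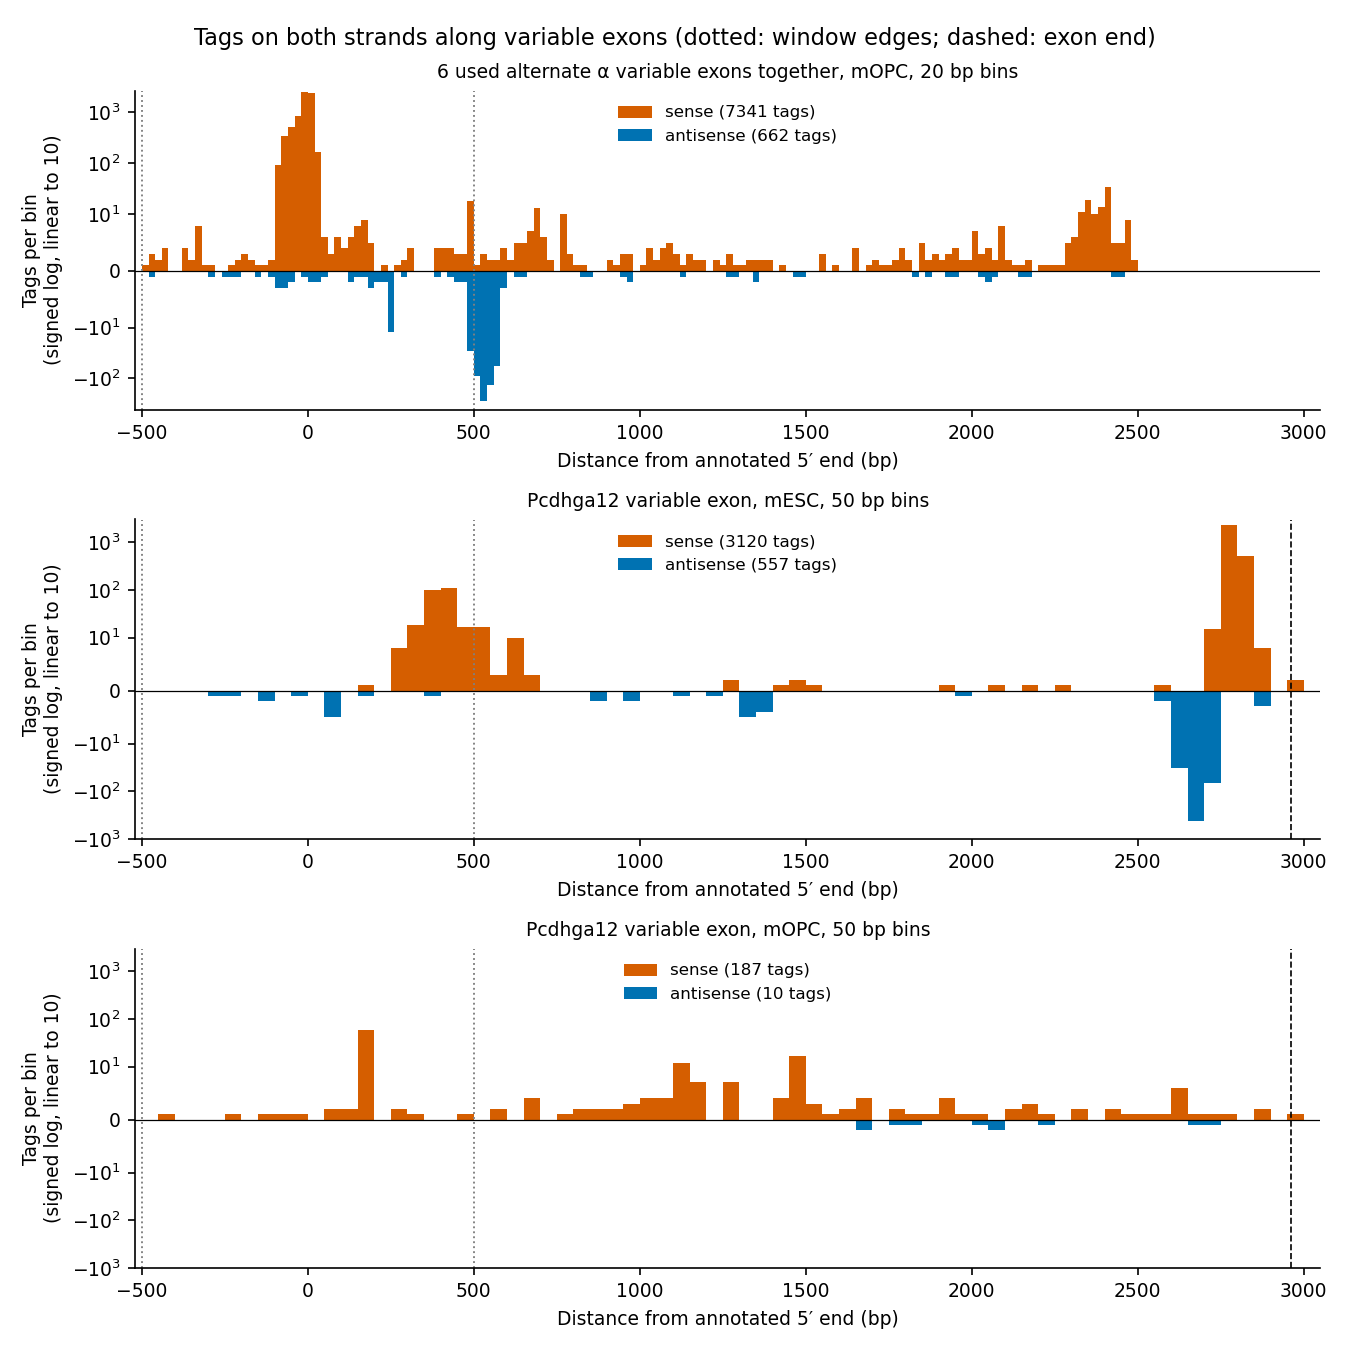
Tags on both strands by distance from the annotated 5′ end (signed log axis, linear up to 10 tags; antisense below 0; libraries of a line summed), for 6 alpha exons of mOPC together in 20 bp bins and for Pcdhga12 in each line in 50 bp bins, with dotted lines at the window edges and a dashed line at the exon end. Antisense tags of the alpha exons gather between 512 and 571 bp, and Pcdhga12 has a pair of starts near its exon end in mESC with 2823 sense and 529 antisense tags.

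The genes tied to promoter choice or to the function of clustered protocadherins were read from the same edgeR fit. Of 12 genes for CTCF, cohesin and its regulators, 10 were lower and 2 higher in mOPC, with a median log2 fold change of -0.59, in a fit that called 91.3% of all genes. Ctcf, which binds the promoters and enhancers of the clusters, went from 84.5 ± 2.70 to 29.1 ± 0.867 CPM (SD, n = 3), a log2 fold change of -1.53. The cohesin subunits gave -1.94 for Smc1a, -0.64 for Smc3, -0.46 for Rad21, -0.50 for Stag1 and -0.55 for Stag2. Among regulators, the loader gene Nipbl was at -0.68, the release factor Wapl at -1.68, Pds5a at -1.49 and Pds5b at -0.31. The genes that rose were Mau2, the partner of Nipbl in loading, at 1.58 and Wiz at 0.85.

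Of 12 genes for DNA methylation and SMCHD1, 7 were lower and 4 higher in mOPC, with a median of -0.63. Of all genes tested 48.4% were lower and 42.8% higher, so that these counts alone did not set the list apart. The methyltransferase genes Dnmt1, Dnmt3a and Dnmt3b were lower by log2 fold changes of -0.63, -1.42 and -1.33. Dnmt3b, which methylates variable promoters in the embryo, had 19.7 ± 1.31 CPM in mESC and 7.74 ± 0.970 in mOPC (SD, n = 3). Dnmt3l went from 153 to 0.0152 CPM, so that it passed the filter through mESC alone, which fixed the direction of its call. Uhrf1 had a log2 fold change of -2.47, and the demethylation genes Tet1 and Tet2 were at -5.56 and -0.64. Tet3 rose by 2.63, Smchd1, a silencer of the clusters, by 0.57, and its partner Lrif1 by 0.48. Setdb1, with 16.5 CPM in mESC and 17.9 in mOPC, passed no threshold (adjusted p = 0.223, edgeR).

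Non-clustered protocadherins, single genes elsewhere in the genome, gave 8 higher and 1 lower of 10 tested in mOPC (median log2 fold change 5.79). Of all genes tested 42.8% were higher and 48.4% lower. Pcdh7, Pcdh11x and Pcdh15, with 0, 10 and 2 tags in mESC, passed the filter through mOPC alone. Cdhr1, with 0 tags in mOPC, passed it through mESC alone, so that the direction of these calls was fixed. Pcdh17 rose from 2.49 to 155 CPM (log2 fold change 5.90), Pcdh10 from 1.42 to 113 (6.40) and Pcdh9 from 0.851 to 95.4 (6.89), and Pcdh1 had a log2 fold change of 4.15. Pcdh11x and Pcdh19 rose by 6.28 and 2.47, and Pcdh7, with 0 tags in mESC, reached 88.4 CPM in mOPC. Cdhr1, once named Pcdh21, had 2.89 CPM in mESC and 0 tags in mOPC, and was at least 91.3-fold higher in mESC. Of the intracellular partners, 4 of 5 were tested. Ptk2 and Fyn, kinases linked to the shared cytoplasmic domains, rose by 1.35 and 3.93, Ptk2b fell by 5.00 on the log2 scale, and Axin1 was without a call (0.06, adjusted p = 0.533).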

How the data were processed

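The deposited files hold raw tag counts for each library, not normalized, 1 line for each start position on a strand. According to the methods of the study, the authors trimmed the reads, placed the tags on mm10 with bowtie and kept those with 1 placement, whereas the submitters' processing notes name CASAVA 1.8 and BWA 0.5.9. Tags were summed with Python 3.11.15 within 500 bp of 5′ ends from GENCODE M21. Levels are CPM of all tags of a library. The model was fitted in R 4.3.3 with edgeR 4.0.16 (TMM, filterByExpr, robust quasi-likelihood) on all protein-coding genes, with DESeq2 1.42.0 as an alternative. Fold changes are mOPC over mESC. Bounds for 0 tags take 3 counts over the pooled tags of a line, and bounds and intervals cover counting error only. The fit was also run on simulated counts of 13941 genes, 200 of them changed by 2 on the log2 scale. The coefficient of variation between simulated libraries was set to 0.1. There the fit recovered 197, or 98.5%, and 7 of its 204 calls were false. With 91.3% of genes called in the data, far more than were changed there, these rates do not give the error rates of the data.

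The libraries of a line differed from one another by more than sampling noise, with a chi-square per degree of freedom of 4.34 or more. The variants named singly were every C-type variant, every variant used in mESC, every called variant that moved against most called variants of its cluster, and, in each alternate group, the 4 with the largest mean and the 2 with the largest change without overlap. Other names are marked or were chosen after their values were seen. Of the gene lists, every called gene with at least 2 CPM in 1 line is named, except 1 that is not reported here. The members and lists were chosen with earlier results of these data known. Pcdhgb8, annotated as a polymorphic pseudogene, and 2 annotated 5′ ends inside coding parts (of Pcdha11 and Pcdhga4) were left out, and 12 members had more than 1 annotated 5′ end.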

Additional observations from a re-analysis of the deposited data

How the results depend on the processing

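The replicate numbers did not pair the libraries: the deviations of libraries with the same number correlated by 0.00556, 0.0783 and 0.0209, and not every library correlated best with its own number. With a replicate block the members gave 27 higher and 14 lower, as without it. The other alternatives gave 24 (positions with at least 2 tags) to 35 (window of 1000 bp) members higher and 12 to 17 lower, and leaving out 1 library gave 27 to 30 higher and 14 to 16 lower. Of 637 values of single members under the alternatives, 628 kept direction and side of the threshold. Reversed were, in a window of 200 bp, Pcdhga12 (log2 fold change 5.30) and Pcdhgc5 (-1.21), and, among genes without a call, Axin1 with positions of at least 2 tags (-0.071), with RLE size factors (-0.029) and with DESeq2 (-0.029). Leaving out 1 library gave -0.040 (without mESC replicate 1) to 0.17 for Setdb1 and -0.062 to 0.11 for Axin1. Without the filter on low counts, 2 intracellular partners were lower, Ptk2b and Ret.

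Used members ranged from 11 (threshold of 2 CPM) to 20 (threshold of 0.5) in mESC and from 21 (threshold of 2, or positions with at least 2 tags) to 36 (window of 1000 bp) in mOPC. Counting only positions with at least 2 tags moved the log2 ratio of summed tags to 6.53 for alpha, 9.38 for beta and 1.76 for gamma, and the effective number of variants in mESC to 3.90 for alpha, 5.03 for beta and 9.60 for gamma, and in mOPC to 5.75, 4.14 and 2.51. A window of 200 bp gave 9.89 gamma variants in mESC and 5.79, 4.31 and 2.63 alpha, beta and gamma variants in mOPC. A window of 1000 bp gave 7.79 beta and 11.2 gamma variants in mESC and 6.80, 4.95 and 3.20 in mOPC. Libraries thinned to the smallest gave 7.34 beta variants in mESC and 2.79 gamma variants in mOPC. The antisense share of window tags was 2.56% in mESC and 1.11% in mOPC in a window of 1000 bp. This window takes in the antisense starts of alpha exons. Over window and variable exon, the 6 used alternate alpha members held 662 antisense tags in mOPC but only 11 in mESC. Depth limits the alpha and beta values of mESC, where a library held 26 to 67 and 35 to 52 tags.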

Other observations

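Pcdhgb8, left out because it is annotated as a polymorphic pseudogene, had 4.80 ± 0.980 CPM in mESC and 23.1 ± 1.35 in mOPC (SD, n = 3), above 19 of the 21 gamma members in mOPC. The constant exons, outside the windows, held 4.20% ± 0.510 of the sense tags of the gamma cluster in mESC and 2.80% ± 0.212 in mOPC, and 0.775% ± 0.120 of those of the alpha cluster in mOPC (SD, n = 3).

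Genes beside the gamma cluster did not share 1 direction. Taf7, between the beta and gamma clusters, had 209.6 ± 4.28 CPM in mESC and 25.4 ± 2.39 in mOPC, and Diaph1, behind the gamma cluster, had 131 ± 24.2 and 33.6 ± 3.07 (SD, n = 3), with log2 fold changes of -3.03 and -1.96 (adjusted p = 6.52e-41 and 1.24e-16, edgeR). Hdac3, beyond Diaph1, had 36.5 ± 0.788 and 72.1 ± 5.22 CPM, a log2 fold change of 0.98 (adjusted p = 1.88e-16, edgeR).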
